A study of Mus musculus with 6 samples.

Results

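Autophagy is the pathway by which a cell wraps worn parts in a double membrane, the autophagosome, and delivers them to the lysosome to be digested. Mitophagy is its branch for damaged mitochondria, and in heart muscle it keeps the large pool of mitochondria in working order. Muscle also breaks down contractile proteins through ubiquitin ligases, and Fbxo32 (atrogin-1) and Trim63 (MuRF1) are the pair known from muscle atrophy, where forkhead (FoxO) factors drive both the ligases and several autophagy genes. The genes described here are 34 named genes of these systems, taken from 43432 gene identifiers in the table and chosen by name. That choice was made with earlier results of these data known. All 34 were found in the table and all 34 passed the filter on low values (a mean normalized count of at least 10), the lowest mean being 133.

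The data are bulk RNA sequencing of atria, right and left, from wild-type C57BL/6J mice. The 3 HFD samples came from mice given a high-fat diet from 6 weeks of age for 10 weeks, and the 3 control samples from mice given control chow for the same period. No transgene or drug was used in these 6 samples, and obesity in this model comes from the diet. The sources used here do not say whether each sample is 1 mouse, so the tests below measure the spread between samples.

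A contradiction in the labels bears on every direction given here. The sample titles and the column names put 3 samples on each diet, while a separate treatment field gives the opposite diet for all 6, and the titles were followed. Under that assignment Angptl4, a gene that fatty acids induce, stood at 1851, 1418 and 1412 in the HFD samples and at 80.6, 33.5 and 32.8 in the control samples. Pdk4, which restrains glucose oxidation when fat is burned, stood at 58780, 64656 and 28363 against 5700, 4800 and 5656. If the treatment field were the right one, every sign below would turn.

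Values are normalized counts, that is, reads per gene divided by a size factor of the sample. Depth ran from 15874251 to 28971508 reads, control sample 2 being the deepest and having 30.7% of its reads from mitochondrial genes against 19.5% to 24.4% in the others. A level of 3 reads corresponds to 2.05 to 3.41 normalized counts, far under every one of the 34 genes. The atrial genes Nppa, Myl7, Myl4 and Sln were high in all 6 samples. Of 6 skeletal muscle markers, the fast myosin Myh4 was at 0 in all but control sample 3, where it had 1.09. Others on that list were well above 0, with Ckm from 8967 to 15058 and Acta1 from 311 to 801 over all samples. The atrial list summed to 283677, 280221 and 510615 in HFD samples 1, 2 and 3 and to between 434544 and 478294 in the controls. In this sum HFD samples 1 and 2 lay below all others and HFD sample 3 lay above. Nppa made up most of the sum in every sample. In HFD sample 3 Nppa and Myl4 lay above all controls, Myl7 (58765) lay among them and Sln (19799) lay below them. The ventricular list summed to 13770 in control sample 2 and to between 4262 and 6415 elsewhere. Of 4 brown adipocyte markers 3 were tested and 2 rose, and the list summed to between 616 and 1283 in HFD and between 187 and 330 in control atria, none of the markers being at 0 throughout. The 5 endothelial markers summed to between 14087 and 15398 against 11802 to 12280, with none called. White adipocyte, fibroblast and erythroid sums overlapped between diets. The part of these cells in the values below was not tested.

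Some promoters of these genes hold well known regulatory letters of the pathway, and a few are shown because TFEB and FoxO factors are known to act through such letters. Promoters from RefSeq on GRCm38.p6, covering 250 bases before to 50 bases after a start site, were found for 26 of the 34 genes. The palindrome CACGTG, the E-box core of the element that TFEB binds, was searched on both strands. It was in 9 of the 26 genes (Atg14, Atg3, Atg5, Atg7, Bnip3, Ctsd, Ctsl, Lamp1 and Mcoln1), while 7.15% of all 32851 promoters held it. For each motif a gene was counted if any of its promoters held it, and the 26 genes had 28 promoters. The shares of all are per promoter, so the 2 measures are not alike. The longer CACGTGAC, which contains the shorter motif, was in 6 of the 26 and in 2.25% of all promoters. The forkhead motif GTAAACA, also searched on both strands, was in Trim63 alone of the 26 and in 3.65% of all promoters. Fbxo32 was among the genes for which no promoter was found, so it was not searched for any motif. Each window below is 30 bases, 5′ to 3′ on the gene's strand, with the motif in capitals, which in Trim63 is read on the opposite strand (TGTTTAC). They lie at chr8:13159121-13159150 on the plus strand for Lamp1, chr7:142387908-142387937 on the minus strand for Ctsd, chr8:3500462-3500491 on the plus strand for Mcoln1, chr14:47568418-47568447 on the minus strand for Atg14, chr7:138909597-138909626 on the minus strand for Bnip3 and chr4:134314915-134314944 on the plus strand for Trim63.
Lamp1: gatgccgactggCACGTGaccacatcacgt
Ctsd: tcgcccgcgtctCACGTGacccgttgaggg
Mcoln1: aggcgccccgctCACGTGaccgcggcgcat
Atg14: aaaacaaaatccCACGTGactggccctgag
Bnip3: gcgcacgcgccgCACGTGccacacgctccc
Trim63: cagtctgttctTGTTTACgacccccacggc
Lamp1 held 4 copies of the E-box core across its whole promoter, of which 1 is shown. A match describes the letters and is no evidence of binding.

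None of the 34 genes of autophagy, mitophagy and atrophy passed the test, limma on log2(normalized count + 1) with Benjamini-Hochberg adjustment over the 15275 genes tested, and the lowest adjusted p was 0.101, for Atg13. By the same test 0.484% of all genes tested rose (74) and 0.262% fell (40), so few or no calls among 34 genes are what the background gives. At an unadjusted p under 0.05, 4 of the 34 were higher in HFD (Fbxo32, Atg13, Wipi2 and Bnip3) and 1 was lower (Park2). The background of that rule was 6.66% of all genes higher and 5.55% lower, so these counts over 34 genes are read as near the background. HFD samples lay above all controls in 4 of the 34 (Atg13, Lamp1, Ctsb and Fbxo32), against 8.86% of all genes, and below all controls in Park2 alone, against 9.17%.

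The median log2 fold change of the 34 genes, HFD minus control, was 0.09, beside 0.005 over all genes tested. For 22 of the 34 the 95% interval of the log2 fold change lay within 0.5 of 0, so for those a change beyond 1.41-fold either way was outside the interval. Such narrow intervals were found for 34.6% of all genes tested. In this paragraph the shares of all genes were not matched for level. All genes tested averaged at least 10 normalized counts, and the 34 at least 133. In 23 of the 34 the fitted log2 fold change itself was under 0.2 in size, that is 67.6%, against 53.7% of all genes. Among the rest stood Fbxo32, Bnip3, Atg13 and Park2, whose fitted differences were the 4 largest in size of the 34.

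**Figure D1:**
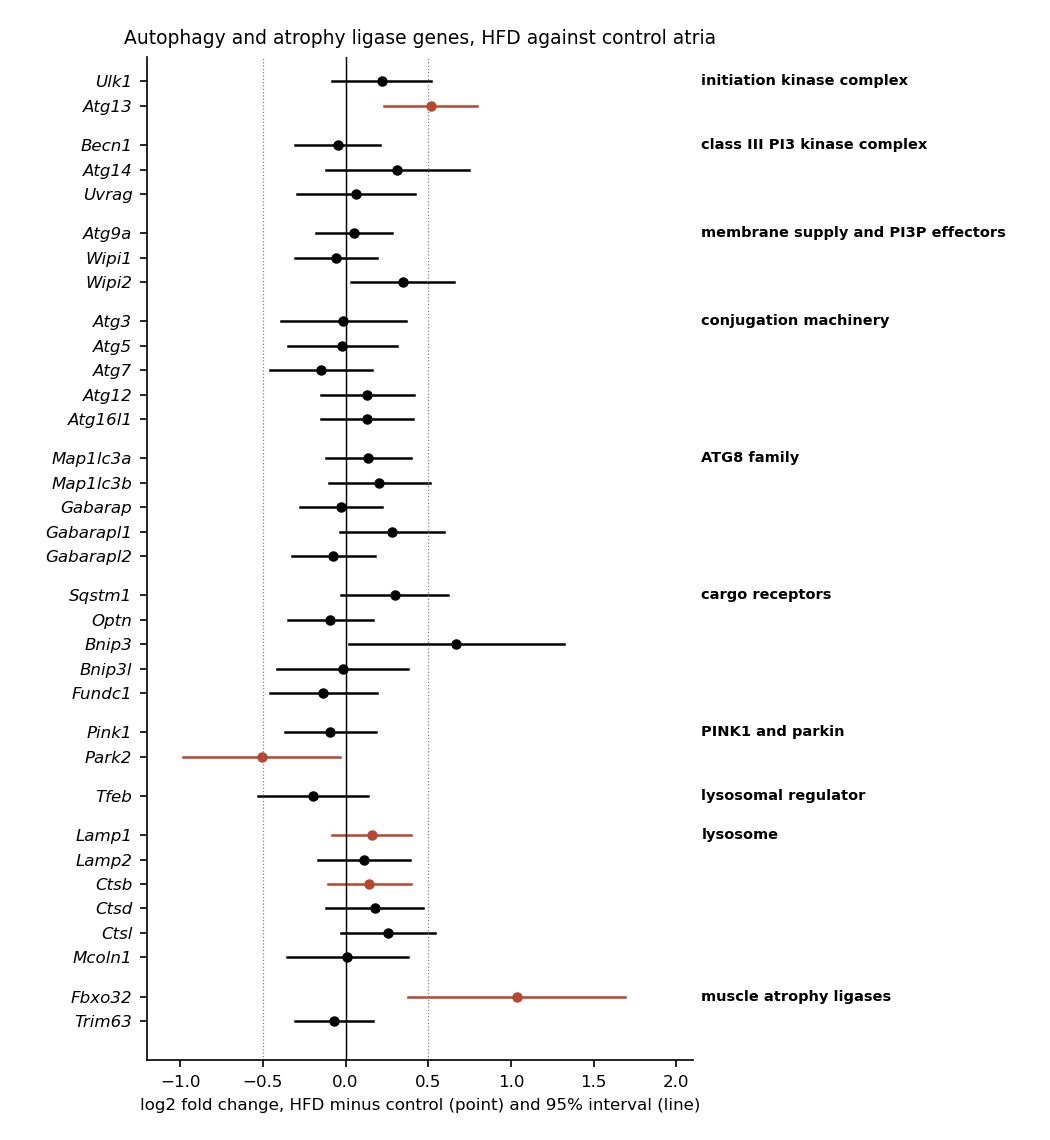
The log2 fold change, HFD minus control, of each of the 34 genes (point) with its 95% interval from limma (line), grouped by role, with red marking genes whose HFD and control samples did not overlap and dotted lines at 0.5 and -0.5. Fbxo32 lies farthest to the right at 1.03 and Park2 farthest to the left at -0.51, while most intervals cross 0.

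Levels between genes were compared as normalized counts per kilobase of exon, with the annotated exons of all transcripts of a gene merged. In control atria Ctsd, the aspartic protease of the lysosome, averaged 6396 per kilobase, Map1lc3a 4848, Pink1 4357 and Lamp1 2898. Park2 was the lowest at 15.2 per kilobase, although its partner Pink1 was the third highest. The 5 genes of the conjugation machinery ranged from 62.1 for Atg12 to 130 for Atg5. Without division by length, Atg12 averaged 479 normalized counts in control atria and Atg5 306. Their exon lengths were 7711 and 2352 bases, so the order of these 2 genes depends on length. Park2 lay apart from Atg14, the next lowest, and Pink1 from Lamp1, with no overlap between their control samples, whereas Map1lc3a and Pink1 overlapped.

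**Figure D2:**
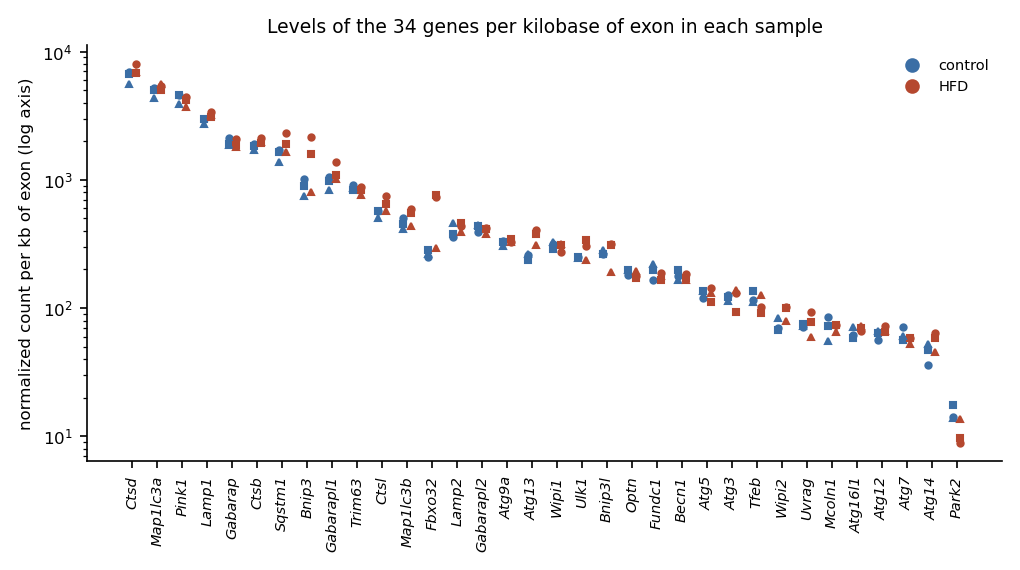
Normalized count per kilobase of exon, on a log axis, of the 34 genes in the 3 control samples (blue) and the 3 HFD samples (red), ordered by mean level. The levels run in control atria from a mean of 6396 for Ctsd to 15.2 for Park2, and most genes show overlapping colours.

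The 2 atrophy ligases gave unlike values, with a fitted 2.05-fold difference for Fbxo32 that did not pass the test and almost none for Trim63. Fbxo32, the F-box subunit that brings substrates to an SCF ubiquitin ligase, lies at chr15:58175879-58214892 on GRCm38. Its normalized counts were 5095, 5272 and 2050 in the HFD samples and 1737, 1987 and 1855 in the controls. HFD samples 1 and 2 were far above every control, whereas HFD sample 3 was just above the highest one. The means were 4139 ± 1811 (SD, n = 3) and 1860 ± 125 (SD, n = 3), and the fitted log2 fold change was 1.03 (SE 0.30, limma adjusted p = 0.158). The 95% interval of the log2 fold change ran from 0.38 to 1.69. An exact permutation test (two-sided) gave p = 0.1, which is as low as 3 against 3 samples can reach. Without HFD sample 3 the log2 fold change was 1.48 and passed the test (limma adjusted p = 8.6e-05), and in the fits that left out 1 sample it ran from 0.80 to 1.48. The edgeR and DESeq2 tests on whole reads gave adjusted p = 0.118 and 0.110. The atrial gene sums given above moved the other way in HFD samples 1 and 2, and their part in this difference was not tested. In a bulk sample fewer cells of a type and less RNA per cell cannot be told apart.

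Trim63, a RING-finger ligase of the sarcomere, lies at chr4:134315120-134329629. Its normalized counts were 2514, 2378 and 2176 in HFD and 2584, 2371 and 2462 in control atria. The groups overlapped, with HFD sample 3 below all controls and control sample 1 above all HFD samples. Its log2 fold change was -0.07 (SE 0.11, limma adjusted p = 0.847), with a 95% interval from -0.31 to 0.17. Per kilobase, Trim63 was above Fbxo32 in control atria, at 870 against 267.

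Atg13, the adaptor that holds the ULK1 kinase complex together at the start of autophagosome formation, lies at chr2:91674618-91710576. It had normalized counts of 1761, 1659 and 1356 in HFD and 1126, 1038 and 1160 in control atria. All HFD samples lay above all controls. The log2 fold change was 0.52 (SE 0.13, limma adjusted p = 0.101), or 1.43-fold with a 95% interval of 1.18 to 1.74. Atg13 was the 1 gene of the 34 that DESeq2 called, with an adjusted p of 0.013, in a test that called 2.2% of all genes as higher, while edgeR gave 0.110. Ulk1, the kinase of the complex, had 1967, 2194 and 1550 against 1626, 1638 and 1597. HFD sample 3 was below all controls and the other two were above. The log2 fold change of Ulk1 was 0.22 (SE 0.14, limma adjusted p = 0.574).

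Among the cargo receptors, which tie a load to the autophagosome, Bnip3 was the most variable. Bnip3 sits in the outer mitochondrial membrane, recruits autophagosomes and is induced by low oxygen and by FoxO factors, and it lies at chr7:138890836-138909519. Its normalized counts were 4905, 3615 and 1812 in HFD and 2310, 2038 and 1697 in control atria. HFD samples 1 and 2 stood above all controls and HFD sample 3 among them. Fitted over all samples, the log2 fold change was 0.67 (SE 0.29, limma adjusted p = 0.389), with a 95% interval from 0.02 to 1.32. Without HFD sample 3 it was 1.07 (limma adjusted p = 0.009), and in the fits that left out 1 sample it went as low as 0.36. Its relative Bnip3l (NIX) had 1208, 1202 and 744 against 1012, 1018 and 1088, and the log2 fold change was -0.02 with a 95% interval from -0.41 to 0.38. Without HFD sample 3 alone, 3 of the 34 genes passed the test (Fbxo32, Atg13 and Bnip3), against 1.43% of all genes called as higher in that fit.

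Sqstm1 (p62), the receptor for ubiquitin-tagged cargo, had 7728, 6437 and 5486 in HFD and 5769, 5533 and 4613 in control atria. HFD sample 3 lay within the control range. Its log2 fold change was 0.30 (SE 0.15, limma adjusted p = 0.458). Optn, another ubiquitin-binding receptor, and Fundc1, a mitochondrial outer membrane receptor, had log2 fold changes of -0.09 and -0.13, and their groups overlapped.

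**Figure D3:**
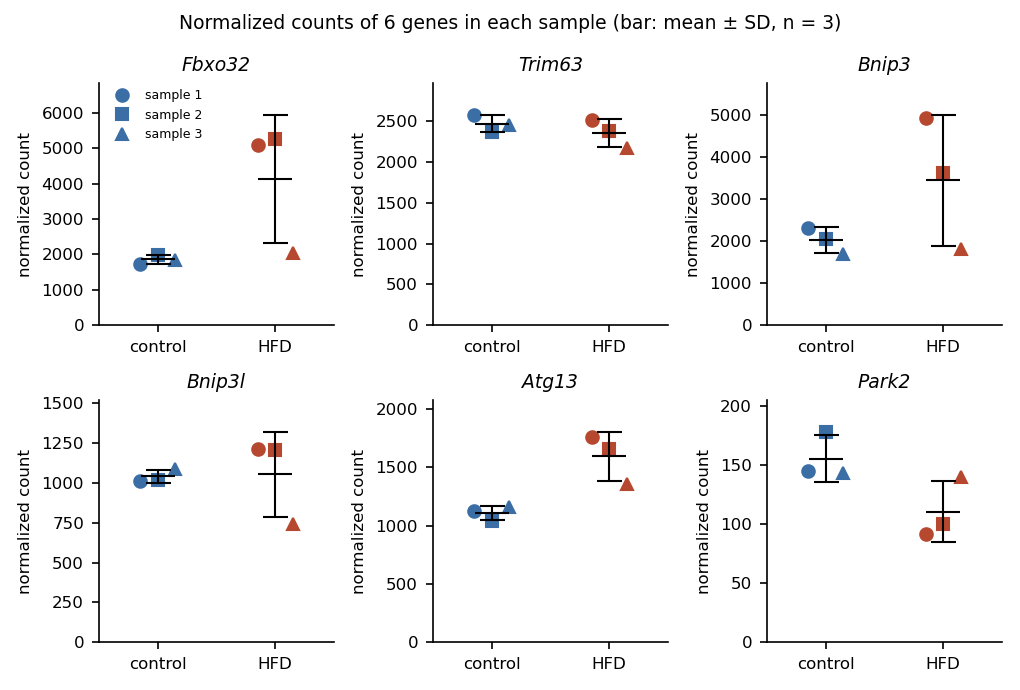
Normalized counts of Fbxo32, Trim63, Bnip3, Bnip3l, Atg13 and Park2 in each control (blue) and HFD (red) sample, with the mean ± SD (n = 3) in black. HFD samples 1 and 2 stand above all controls for Fbxo32 (5095 and 5272) and Bnip3 (4905 and 3615), while HFD sample 3 is near the controls for both.

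Parkin and PINK1 form the sensor pair of mitophagy, PINK1 building up on damaged mitochondria and parkin tagging their surface with ubiquitin. Park2, the parkin gene, lies at chr17:10840384-12063361 and had 91.4, 99.9 and 140 normalized counts in HFD and 144, 178 and 143 in control atria. The groups did not overlap, but HFD sample 3 and control sample 3 were nearly level. On the log2 scale the fold change was -0.51 (SE 0.21, limma adjusted p = 0.376), with a 95% interval from -0.98 to -0.03. Pink1 had 11724, 11177 and 9892 against 12225, 12233 and 10478, overlapping groups with a log2 fold change of -0.09.

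In the phosphoinositide 3-kinase complex that marks the forming membrane, Becn1, Atg14 and Uvrag had log2 fold changes of -0.05, 0.31 and 0.06. Atg14, which steers the complex to autophagosomes, had 274, 254 and 198 against 156, 205 and 225, so the groups overlapped. Atg9a, the membrane protein of the vesicles that seed the autophagosome, and Wipi1, which reads the lipid mark, had log2 fold changes of 0.05 and -0.06. Wipi2, the other lipid reader, had 1077, 1064 and 838 against 741, 714 and 885, with a log2 fold change of 0.34 (SE 0.14, limma adjusted p = 0.361). HFD sample 3 was again the one that lay within the control range.

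The conjugation machinery attaches ATG8 proteins to the membrane, and its genes had small fitted differences. Atg3 and Atg7, its enzymes, had log2 fold changes of -0.01 and -0.15. Atg5, Atg12 and Atg16l1, which form the complex that places the ATG8 proteins, had -0.02, 0.13 and 0.13. All 5 intervals lay within 0.5 of 0, and all 5 pairs of groups overlapped.

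The ATG8 proteins themselves coat the autophagosome. Map1lc3b, the usual marker of autophagosomes, had 4471, 4120 and 3275 in HFD and 3772, 3378 and 3095 in control atria. Its fitted log2 fold change was 0.20 (SE 0.14, limma adjusted p = 0.613). Map1lc3b overlaps Gm20388 on the same strand and Zcchc14 on the other, with mean normalized counts of 1416 and 907. Whether the overlap includes exons is not shown. Pink1, Atg9a and Ctsb were among the other genes described here that also overlap a neighbour. Whether strand was used in counting is not stated. Gabarapl1, a FoxO target in muscle, had the largest log2 fold change of the family at 0.28 (limma adjusted p = 0.467), from 2775, 2208 and 2057 against 2111, 1987 and 1672. Map1lc3a, Gabarap and Gabarapl2 had 0.14, -0.03 and -0.07.

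Lysosomal genes had small positive differences. All 6 (Lamp1, Lamp2, Ctsb, Ctsd, Ctsl and Mcoln1) had a log2 fold change above 0, from 0.01 for Mcoln1 to 0.26 for Ctsl, and none passed the test. Mcoln1, the calcium channel of the lysosome, turned to -0.01 under DESeq2 and edgeR and to -0.02 under quantile normalization. Lamp1, a glycoprotein of the lysosomal membrane, had 9096, 8239 and 8628 in HFD and 7916, 8012 and 7328 in control atria. Every HFD sample lay above every control, though the step was small, with a log2 fold change of 0.16 (SE 0.11, limma adjusted p = 0.615). Ctsb, a cysteine protease, had 12931, 11615 and 11916 against 11549, 11166 and 10326, and a log2 fold change of 0.14 (SE 0.11, limma adjusted p = 0.672). Its lowest HFD sample was close to its highest control. Ctsd and Ctsl had 0.18 and 0.26 with overlapping groups. Macrophages are rich in lysosomes, and the summed level of 8 macrophage markers was 11124 to 12989 in HFD and 8234 to 10794 in control atria. Of those 8 markers 4 were higher at an unadjusted p under 0.05 in limma, beside 6.66% of all genes, none passed the adjusted test and none was at 0. Lyz2 was the largest part of the sum in every sample. The log2 fold change was above 0 in 7 of the 8, while Csf1r had -0.009 with a 95% interval from -0.25 to 0.23. The part of macrophages in the lysosomal values was not tested.

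Tfeb, the factor that switches on lysosomal and autophagy genes, had a slightly lower mean in HFD atria, within the spread. Its normalized counts were 574, 516 and 717 in HFD and 657, 766 and 635 in control atria, with overlapping groups. Its log2 fold change was -0.20 (SE 0.15, limma adjusted p = 0.653). TFEB is known to be controlled mostly by its place in the cell, which RNA levels do not show.

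The samples differed in a way the diets did not explain. HFD sample 1 was the highest of its diet in 21 of the 34 genes, and HFD sample 3 was the lowest in 21. Relative to the control mean, the median log2 value of the 34 genes was 0.15, 0.08 and 0.02 in HFD samples 1, 2 and 3. Control sample 3 was the lowest of its diet in 18 genes. Such counts were not taken over all genes, so whether they are particular to the 34 is not shown. HFD sample 3 was not control-like throughout, as its Angptl4 and Pdk4 values above show.

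A ratio of a pair of genes within 1 sample does not depend on the size factor. Of 7 pairs of related genes, chosen after their values were seen, 4 had all HFD ratios above all control ratios. Fbxo32 over Trim63 was 2.03, 2.22 and 0.94 in HFD and 0.67, 0.84 and 0.75 in control atria. Bnip3 over Bnip3l was 4.06, 3.01 and 2.44 against 2.28, 2.00 and 1.56. HFD sample 3, which was among the controls for Bnip3 itself, lay above them in this ratio. Atg13 over Ulk1 was 0.90, 0.76 and 0.87 against 0.69, 0.63 and 0.73, and Gabarapl1 over Gabarap was 0.72, 0.65 and 0.62 against 0.54, 0.57 and 0.49. Because the pairs were picked with their values in view, these ratios are a description and carry no test. The ratios Map1lc3b over Map1lc3a, Park2 over Pink1 and Lamp1 over Lamp2 overlapped between diets.

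**Figure D4:**
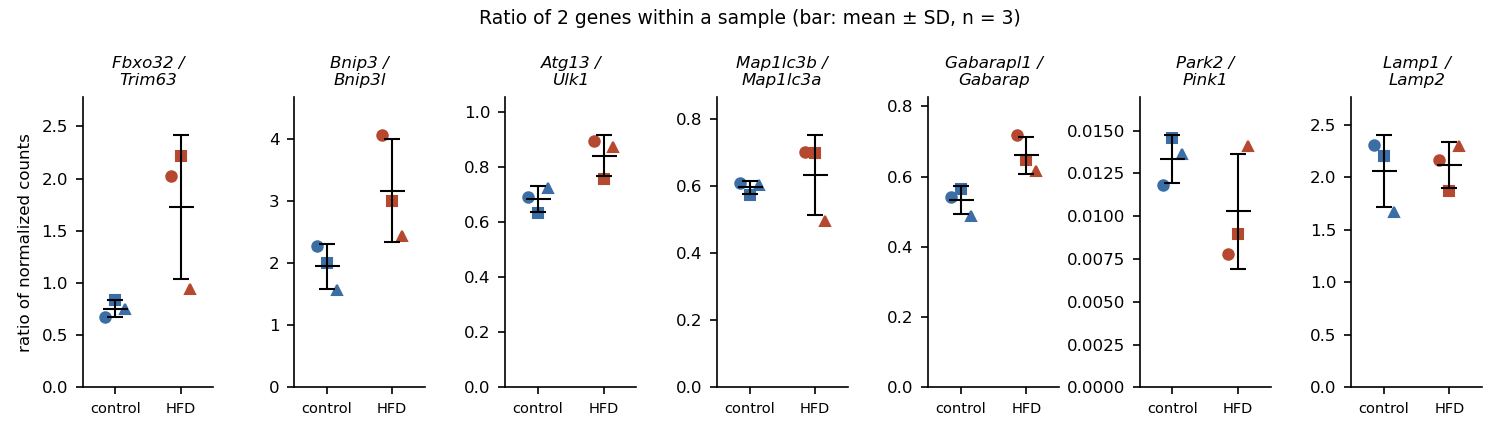
The ratio of normalized counts of 7 pairs of related genes within each control (blue) and HFD (red) sample, with the mean ± SD (n = 3) in black. For Fbxo32 over Trim63 the control samples lie between 0.67 and 0.84 and the HFD samples at 2.03, 2.22 and 0.94.

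Around these 34 genes, 147 further genes of autophagy, the lysosome, nutrient sensing and muscle atrophy were read from the same fit. All 147 were tested, 3 rose and none fell, where 0.484% of all genes rose and 0.262% fell, and their median log2 fold change was 0.06. At an unadjusted p under 0.05, 15 were higher and 4 were lower, beside 6.66% and 5.55% of all genes. HFD samples lay above all controls in 20 and below in 5, beside 8.86% and 9.17% of all genes. The lists were drawn up with earlier results of these data known, so these counts are a description. No conclusion is drawn from their excess over the shares of all genes. The 3 calls depended on the samples used, since leaving out any 1 sample other than HFD sample 3 left at most 1 call, and leaving out HFD sample 3 gave 12. Without limma's variance trend none passed, and DESeq2 called 7 as higher and 1 as lower.

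Fam134b (Retreg1), the receptor that feeds endoplasmic reticulum into autophagosomes, rose from 1608, 1911 and 1975 in control to 3330, 3114 and 2959 in HFD atria. No HFD value came near a control value. This was a log2 fold change of 0.78 (SE 0.12, limma adjusted p = 0.020). In its list of 23 other cargo and mitophagy receptors it was the only call. Tbk1, the kinase that activates receptors, and Ncoa4, the receptor for ferritin, had log2 fold changes of 0.38 and 0.29 without overlap and did not pass the test.

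Ctss (cathepsin S), a lysosomal protease typical of macrophages and other antigen-presenting cells, rose from 500, 467 and 487 to 922, 752 and 1007. In limma the log2 fold change was 0.87 (SE 0.14, limma adjusted p = 0.023). The macrophage marker sum given above was also higher in HFD, and its part in the rise was not tested. Among the 36 other lysosomal genes it was the only call. Scarb2, the lysosomal membrane carrier of glucocerebrosidase, and Npc1, the cholesterol exporter of the lysosome, had log2 fold changes of 0.68 and 0.66 (limma adjusted p = 0.080 and 0.187), without overlap.

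Depp1, named 8430408G22Rik in the table and known as a FoxO target, rose from 247, 231 and 174 to 780, 648 and 400. All 3 HFD samples were above the controls, HFD sample 3 by the least. This gave a log2 fold change of 1.44 (SE 0.24, limma adjusted p = 0.028). It was the only call of the 24 other muscle ligase and FoxO-linked genes. The ligases Cblb and Ubr2 had log2 fold changes of 0.57 and 0.48 without overlap (limma adjusted p = 0.167 and 0.236).

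Of the 9 transcription factors none passed the test. Klf15, a glucocorticoid-induced factor, had a log2 fold change of 0.71 (limma adjusted p = 0.129), with 1337, 1122 and 902 against 728, 814 and 521. Foxo6 had -0.95 (limma adjusted p = 0.059), with 151, 154 and 204 against 386, 341 and 261. Foxo1 and Foxo3, the FoxO factors best known from muscle, had 0.07 and 0.39 with overlapping groups. Among 21 nutrient-sensing regulators none passed the test. Trib3, a stress-induced inhibitor of AKT, had 0.94 (limma adjusted p = 0.080). Ddit4l, an inhibitor of mTORC1, and Bcl2, which holds Beclin-1 back, had -0.90 and -0.36, and Flcn, a regulator of the Rag GTPases, had 0.22. All 4 were without overlap between diets. Of the 22 other genes of autophagosome formation, Zfyve1 had 0.48 and Atg10 had -0.36 without overlap and neither passed the test. None of the 12 genes for fusion with the lysosome passed it, and their log2 fold changes ran from -0.13 to 0.27.

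**Figure D5:**
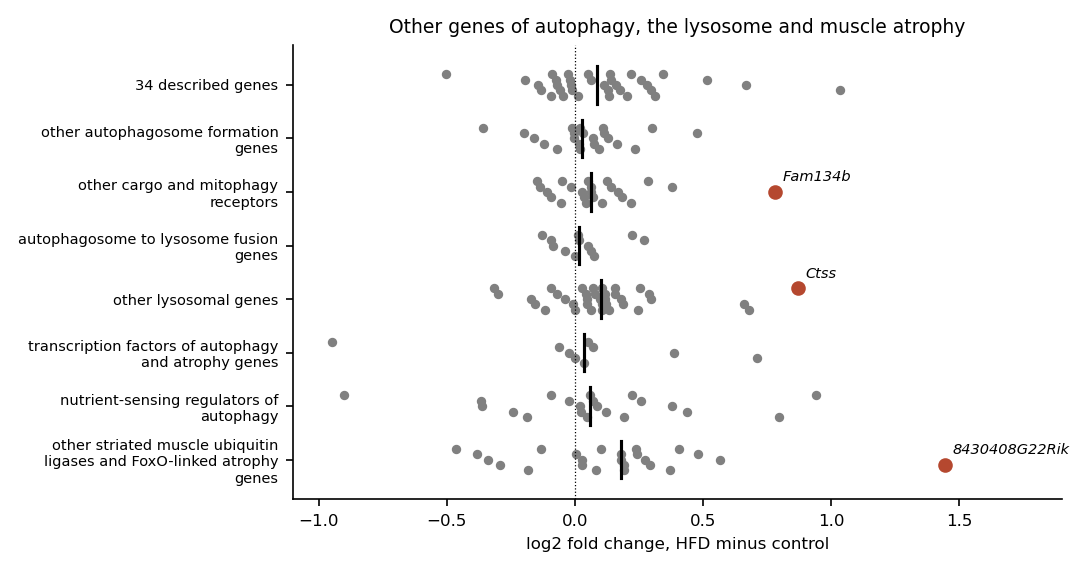
The log2 fold change, HFD minus control, of the 34 genes and of 7 lists of related genes, 1 point per gene, with a black bar at each median and red marking genes that passed the limma test at an adjusted p under 0.05. The 3 red points are Fam134b at 0.78, Ctss at 0.87 and 8430408G22Rik at 1.44.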

How the data were processed

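The RNA was sequenced as single-end 50-base reads from directional libraries. According to the methods, reads were aligned with STAR to GRCm38 and uniquely mapped reads were counted with Salmon. Versions are not given in the sources used here. The values deposited are normalized counts (unit signal), each the reads of a gene divided by a DESeq2 size factor of the sample by the authors. Division by the value of 1 read gave whole reads (tolerance 0.01) for 100.0% of values in each sample. The table also holds the authors' own fold changes and p-values, which were not used. One row naming no gene was left out. Names in the table are in capitals and were matched ignoring case. GENCODE (GRCm38) gave names for 42462 of 43432 identifiers and exon lengths.

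Groups came from the sample titles. The main test was limma 3.58.1 (R 4.3.3, two-sided) with a variance trend. It was fitted to the log2 of each normalized count plus 1, after genes averaging under 10 had been dropped, and p-values were Benjamini-Hochberg adjusted (threshold 0.05). Alternatives were edgeR 4.0.16 and DESeq2 1.42.0 on whole reads, quantile normalization, no variance trend, other filters, a pseudocount of 0.1, no mitochondrial genes, a replicate block and leaving out each sample. The procedure was tested on simulated data whose changes were larger than any fitted difference of the 34 genes. That run therefore does not bear on small differences. The 34 genes and all lists were chosen with earlier results of these data known. Named in full were genes that passed the test or did not overlap and Fbxo32, Trim63, Tfeb, Ulk1, Map1lc3b, Sqstm1, Bnip3 and Park2, and of the lists, genes that passed and up to 2 per direction without overlap.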

Additional observations from a re-analysis of the deposited data

How the results depend on the processing

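With 3 samples a diet, the number of calls depended on the method. Genes that rose and fell were 74 and 40 in limma, 0 and 0 without a variance trend (1717 genes then had an unadjusted p under 0.05), 113 higher with the replicate block, 297 and 186 with DESeq2, and from 10 to 218 and from 4 to 124 when 1 sample was left out. Of the 34 genes 0 were called higher in limma, 1 with DESeq2 (Atg13) and from 0 to 3 with 1 sample left out, the 3 being without HFD sample 3, and 0 were called lower in any of the 15 alternatives. Related genes called higher were 3 in limma, 0 without a variance trend, 7 with DESeq2 and from 0 to 12 with 1 sample left out. Those called lower were 0 in limma, 1 with DESeq2 and from 0 to 2 with 1 sample left out. The sample titles do not say whether the replicate numbers pair animals. Correlations were 0.12, -0.03 and -0.00 between samples of the same number and from -0.15 to 0.16 between unlike numbers. With 3 samples a diet such values cannot settle whether a pairing exists. The block left the count of the 34 at 0. The cause of these shifts was not tested.

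The log2 fold changes of the 34 genes kept their sign in all but 22 of 510 values, over 8 genes whose main value was at most 0.06 in size. Atg3 became 0.0059 with edgeR and 0.0066 with DESeq2, Bnip3l 0.017 and 0.018, and Mcoln1 -0.010 and -0.0097, and -0.016 with quantile normalization. With 1 sample left out, the values ran for Becn1 from -0.11 to 0.024, for Uvrag from -0.086 to 0.24, for Wipi1 from -0.10 to 0.0050, for Atg3 from -0.12 to 0.17, for Atg5 from -0.096 to 0.076, for Gabarap from -0.094 to 0.026, for Bnip3l from -0.13 to 0.21 and for Mcoln1 from -0.16 to 0.16.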

Other observations

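Several related genes, chosen after their values were seen, shared the layout of Fbxo32 and Bnip3, with HFD samples 1 and 2 above all controls and HFD sample 3 near them. Ddit4, an inhibitor of mTORC1 induced by stress and glucocorticoids, had normalized counts of 842, 573 and 295 in HFD and 287, 400 and 236 in control atria. Foxo3 had 1693, 2076 and 1017 against 1094, 1276 and 1149. Fbxo31, another F-box gene, had 2186, 2176 and 1201 against 1540, 1362 and 1168. In limma none of these 3 passed the adjusted test, with log2 fold changes of 0.80, 0.39 and 0.41. The atrial light chain Myl7 had 31186, 27168 and 58765 against 60190, 56346 and 58183, the opposite layout.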
